A study of Homo sapiens with 6 samples.

Results

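The interferon regulatory factors (IRFs) are a family of transcription factors, and 8 of their genes, IRF1, IRF2, IRF3, IRF4, IRF5, IRF7, IRF8 and IRF9, were looked up by Ensembl ID among the 62710 genes of the expression table. The remaining member of the human family was not analysed here. Cells of the established human fibrosarcoma line HT1080 were either left untreated (3 libraries) or exposed for 24 h to the cytokine IFNβ at 20 ng/mL (3 libraries). No knockout, transgene or second agent distinguished the groups. The labels name human IFNβ, whereas the sequencing methods of the study name mouse IFNβ. The titles of the treated libraries also carry a number whose meaning the labels do not give. The study states in general that its in vitro experiments had independent biological replicates, but the labels do not say whether the 3 libraries of a group came from separate cultures. The p-values then measure only the spread between these libraries, which may be technical.

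IRF proteins share a DNA-binding domain that recognises repeats of the letters GAAA, which form the interferon-stimulated response element (ISRE). IRF9 binds the ISRE as part of the complex ISGF3, which holds STAT2 and is activated by type I interferons. IRF1 is an activator and IRF2 its competitor, IRF3, IRF5 and IRF7 are switched on by phosphorylation downstream of sensors of microbial nucleic acids, and IRF4 and IRF8 are known mainly from lymphoid and myeloid cells.

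The libraries rested on between 22848104 and 32915500 fragments, and the mesenchymal markers VIM, FN1, CD44, TIMP1, MMP14 and SPARC were all present. Of these, FN1 and SPARC rose by log2 fold changes of 0.51 and 0.32, and VIM and CD44 fell by 0.29 and 0.09 on the log2 scale (limma adjusted p of 0.0094 or less). Of 10 leukocyte markers, 3 reached a mean of 0.1 FPKM (fragments scaled by the length of the gene and by the fragments of the library). The summed leukocyte level was 0.475 to 0.606 FPKM without and 1.03 to 1.22 FPKM with IFNβ, and CD74, the invariant chain of MHC class II, went from 0.106 to 0.616 FPKM. The defining leukocyte marker PTPRC had at most 6 fragments in any library. None of 6 epithelial markers reached 0.1 FPKM. Their part in the IRF values was not tested. In bulk RNA, fewer cells of a type and less RNA per cell cannot be told apart.

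IRF9, IRF1, IRF2 and IRF3 rose with IFNβ, whereas IRF5 and IRF7 did not pass the test and IRF4 and IRF8 were at or near 0. In all, 6 of the 8 genes had a mean of at least 0.1 FPKM and were tested. Of these, 4 were higher with an adjusted p under 0.05 (limma), beside 15.2% of all 20716 genes tested, and 0 were lower, beside 17.5% of all genes. IRF9 and IRF1 also had a log2 fold change of at least 1, which 3.49% of all genes had with the same adjusted p, while a log2 fold change of at most -1 was found for 0 of the 6 and for 0.739% of all genes. The 3 IFNβ-treated libraries lay above the 3 untreated ones for 5 of the 6 tested genes, beside 22.3% of all genes. The median log2 fold change of the 6 was 0.66, and that of all genes 0.00017.

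IRF9, the DNA-binding subunit of ISGF3, had the largest fold of the 6 tested genes. Its level was 0.115, 0.151 and 0.141 FPKM in the untreated libraries and 1.64, 1.65 and 1.31 FPKM in the treated ones. The lowest treated library was far above the highest untreated one. The means were 0.136 ± 0.0186 and 1.53 ± 0.195 FPKM (S.D., n = 3), a ratio of 11.3. On the scale log2(FPKM + 0.1), which understates the change of low genes, the difference was 2.79 (SE 0.15, 95% interval 2.41 to 3.16; limma adjusted p = 4.9e-05). On this scale 0.613% of all tested genes had a higher log2 fold change. With a pseudocount of 1 the log2 fold change was 1.15, and in a fit of the recovered fragments it was 3.45. These values rested on 17, 29 and 30 fragments without and 327, 266 and 244 with IFNβ.

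IRF9 lies on the plus strand of chromosome 14 (24161053 to 24166565, GRCh38, GENCODE release 29), close behind RNF31, a subunit of the linear ubiquitin ligase complex. The annotation also holds a readthrough gene, ENSG00000259529 (24151218 to 24167402), which runs on the same strand from within RNF31 to beyond IRF9. It shares 1838 of the 3794 exon bases of IRF9 (48.4%) and 1732 of the 4982 of RNF31 (34.8%). Fragments from the shared bases could have been assigned to either gene or to none, and how the authors counted them is not given in the sources used here. The readthrough gene went from 0.0692 to 0.152 FPKM (limma adjusted p = 0.13) and RNF31 from 0.203 to 0.337 FPKM (limma adjusted p = 0.069). REC8, a meiotic cohesin subunit and the next protein-coding gene downstream at 5288 bp, rose from 0.512 to 3.58 FPKM (log2 fold change 2.60, limma adjusted p = 6e-05).

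Protein-coding genes with no exon base shared had a median of 0.583 FPKM (11070 genes), those with up to 25% shared on their own strand had 2.16 FPKM (1192 genes), and those with 25 to 50% shared, the class of IRF9, had 0.326 FPKM (269 genes). Above 75% the median was 0 FPKM (448 genes). The deposited FPKM imply a longer IRF9 gene of 6471 bases, and sharing in the added bases could not be checked. The part of the shared bases in the level of IRF9 was not tested.

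**Figure D1:**
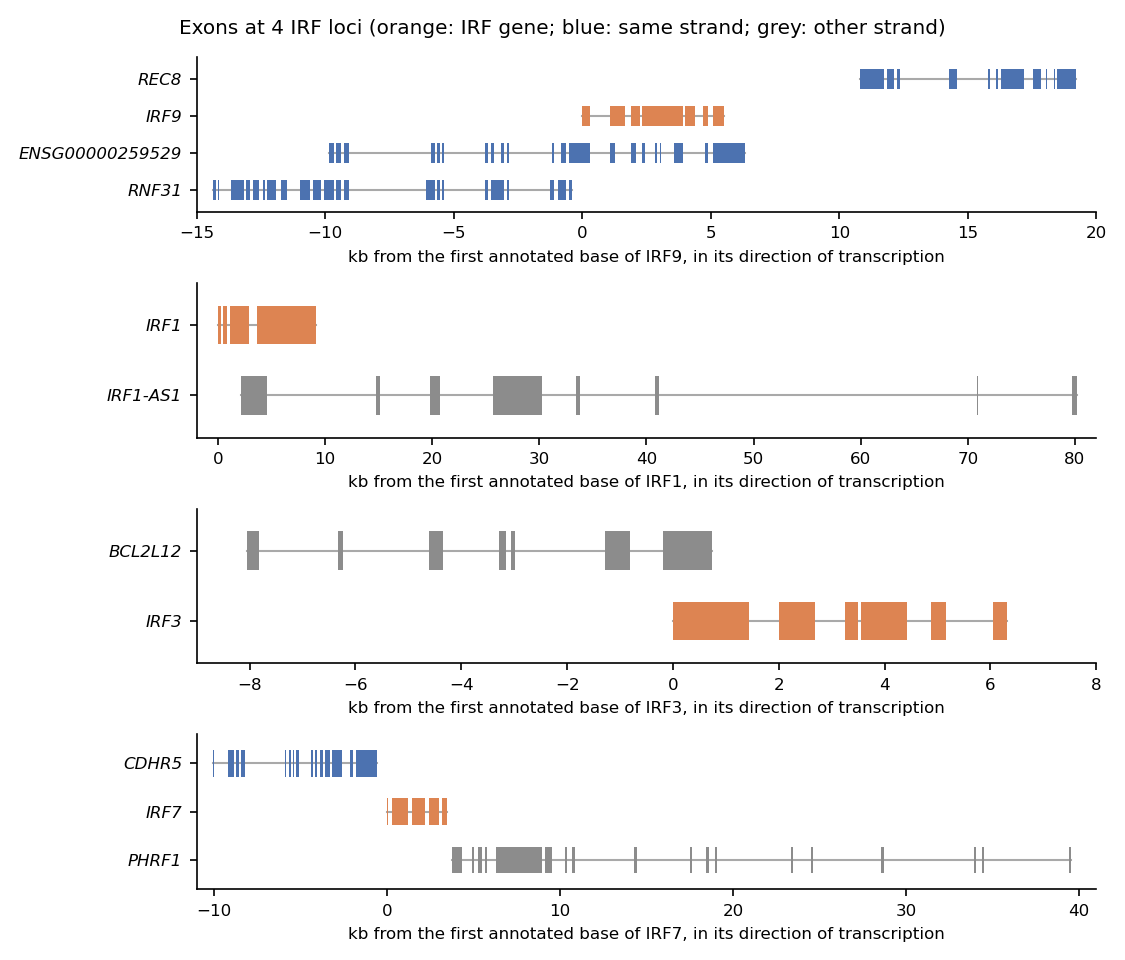
Exons (boxes) of 4 IRF genes and their neighbours in GENCODE release 29, in kb from the first annotated base of the IRF gene and in its direction of transcription; orange marks the IRF gene, blue a gene on the same strand and grey one on the other strand. The readthrough ENSG00000259529 covers 48.4% of the IRF9 exon bases, IRF1-AS1 covers part of the IRF1 exons and BCL2L12 part of those of IRF3, whereas the exons of IRF7 are free of its neighbours.

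IRF1, an activator of antigen-processing and antiviral genes, was measured at 1.76, 2.13 and 1.65 FPKM in untreated cells and at 4.37, 4.42 and 4.32 FPKM after IFNβ. The treated libraries were close together and all above the untreated ones. Its mean rose from 1.84 ± 0.251 to 4.37 ± 0.0525 FPKM (S.D., n = 3), a ratio of 2.37. The log2 fold change was 1.21 (SE 0.09, 95% interval 0.98 to 1.44; limma adjusted p = 0.0002), and 3.99% of all tested genes had a higher one. With a pseudocount of 1 it was 0.92, below the 2-fold line.

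IRF1 lies on the minus strand of chromosome 5 (132481609 to 132490798), and 1716 of its 7799 exon bases (22%) overlap the antisense RNA IRF1-AS1. IRF1-AS1 was at 0.225, 0.246 and 0.212 FPKM without and at 0.945, 1.07 and 0.925 FPKM with IFNβ, and rose by a log2 fold change of 1.72 (SE 0.14; limma adjusted p = 0.00021). Whether the counting used strand is not given in the sources used here, and without strand the reads of both genes in the overlap cannot be told apart. IRF1 had between 493 and 774 fragments in the untreated libraries, and IRF1-AS1 between 50 and 71. In the treated libraries IRF1 had between 1355 and 1649, and IRF1-AS1 between 260 and 283. SLC22A5, the nearest protein-coding gene of lower coordinate, did not pass the test (log2 fold change 0.37, limma adjusted p = 0.15).

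The RefSeq promoter windows (GRCh38.p14, 250 bases before to 50 after a start) held 5 of the 8 genes, IRF1, IRF4, IRF5, IRF8 and IRF9, with 9 windows. They were searched on both strands for TTCNNNGAA, the GAS element of interferon-responsive genes, and for the ISRE letters, GAAA followed by 2 bases of any kind and GAAA again. The GAS letters were found in the windows of IRF1 and IRF9 and not in those of IRF4, IRF5 and IRF8. Of all 35116 windows 7.66% hold them, and of all 27305 genes with a window 9.38%. The ISRE letters were in none of the 9, and 3.57% of all windows hold them. The matches are shown because they sit before the RefSeq starts of both genes that rose most, with the GAS letters in capitals. IRF2, IRF3 and IRF7 had no window and were not searched. The first is the stretch upstream of every IRF1 start in GENCODE release 29, on the minus strand of chr5:132490799-132491023, with its match at -124 from the RefSeq start. The second is a 30-base stretch on the plus strand of chr14:24161192-24161221 with its match at -63, which lies inside the first exon of a longer IRF9 transcript in GENCODE release 29.
IRF1: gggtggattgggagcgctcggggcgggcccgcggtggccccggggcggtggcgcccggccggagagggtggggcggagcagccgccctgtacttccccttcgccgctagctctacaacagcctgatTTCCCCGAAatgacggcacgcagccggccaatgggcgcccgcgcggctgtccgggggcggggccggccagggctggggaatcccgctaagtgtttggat
IRF9: accacgtgatTTCTGGGAAaaggccctccc
These letters describe the windows only, and no binding was measured in these cells.

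IRF2, which competes with IRF1 for the same sites, was at 4.48, 4.52 and 4.11 FPKM in untreated cells and at 7.51, 7.12 and 7.19 FPKM in treated cells. The groups did not overlap. The means were 4.37 ± 0.226 and 7.28 ± 0.208 FPKM (S.D., n = 3), with a ratio of 1.67 and a log2 fold change of 0.72 (SE 0.05, 95% interval 0.61 to 0.84; limma adjusted p = 0.0001). IRF2 lies on chromosome 4 (184387713 to 184474580, minus strand) and shares none of its 3116 exon bases in GENCODE release 29 with another gene. The deposited FPKM imply a longer gene of 6723 bases, and sharing in the added bases could not be checked. IRF2-DT, the divergent transcript that starts 222 bp away, rose alongside it from 0.915 to 1.51 FPKM (log2 fold change 0.66, limma adjusted p = 0.0075).

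The balance of IRF1 to IRF2 was compared within each library. The ratio of their FPKM was 0.393, 0.471 and 0.401 without and 0.581, 0.621 and 0.600 with IFNβ, so all treated libraries were above all untreated ones. The mean ratio went from 0.422 ± 0.0429 to 0.601 ± 0.0199 (S.D., n = 3), a log2 difference of 0.52, which was 0.30 with a pseudocount of 1. In a two-sided exact permutation test p was 0.10, the smallest that 3 against 3 libraries allow. The size of the ratio depends on the gene lengths, but the log2 difference of 0.52 does not. With the lengths of GENCODE release 29, IRF1 averaged 2.9 and 6.87 FPKM without and with IFNβ, and IRF2 9.42 and 15.7 FPKM.

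IRF3, which is made constitutively and activated by phosphorylation, had the highest deposited FPKM of the 8 genes. It was at 8.14, 8.27 and 8.04 FPKM in untreated cells and at 12.5, 12.1 and 12.3 FPKM in treated cells, with little spread in either group. Its mean rose from 8.15 ± 0.115 to 12.3 ± 0.202 FPKM (S.D., n = 3), a ratio of 1.51. The log2 fold change of 0.59 was the smallest of those that passed (SE 0.03, 95% interval 0.52 to 0.65; limma adjusted p = 1.8e-05).

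IRF3 lies on chromosome 19 (49659569 to 49665875, minus strand), and 734 of its 3794 exon bases (19.3%) overlap BCL2L12 on the other strand. BCL2L12, a BCL2-like gene, was at a like level and did not pass the test (8.35 and 7.88 FPKM, limma adjusted p = 0.27). It had between 551 and 781 fragments without and between 601 and 657 with IFNβ, beside 706 to 1004 and 1148 to 1462 for IRF3. Here too, without strand the reads of both genes in the overlap cannot be told apart. Their part in the IRF3 values was not tested. Of the other neighbours of IRF3, SCAF1 did not pass the test (log2 fold change -0.04), and PRMT1, an arginine methyltransferase, fell by 0.22 on the log2 scale (limma adjusted p = 0.00048).

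**Figure D2:**
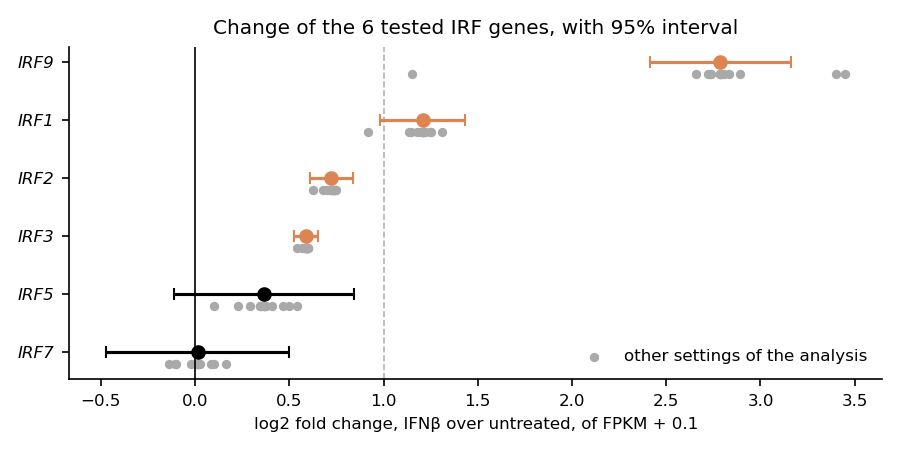
Log2 fold change, IFNβ over untreated, of the 6 tested IRF genes on the scale log2(FPKM + 0.1), with the 95% interval of limma (large points; orange, adjusted p under 0.05; black, not). Grey points are the same gene under other settings of the analysis, including other pseudocounts and left-out libraries, and the dashed line marks a log2 fold change of 1; IRF9 runs from 1.15 to 3.45 and IRF7 from -0.14 to 0.16.

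IRF7, known as a gene that type I interferons induce in many cell types and that amplifies interferon production, did not pass the test. It was at 0.570, 0.813 and 0.837 FPKM in untreated cells and at 0.883, 0.582 and 0.782 FPKM in treated cells. The groups overlapped, and the lowest value of each group came from the library with the fewest fragments in that group. The means were 0.740 ± 0.148 and 0.749 ± 0.153 FPKM (S.D., n = 3). The log2 fold change was 0.015 (SE 0.20, limma adjusted p = 0.97), with a 95% interval from -0.47 to 0.50. The sign of this value changed with the setting.

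The IRF7 values rested on 34, 63 and 72 fragments without and 71, 38 and 59 with IFNβ. Scaled to 1e+06 fragments of the library these were 1.49 to 2.19 and 1.52 to 2.31, and the 95% Poisson intervals of all 6 libraries overlapped. Such intervals cover counting error only.

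IRF7 lies on the minus strand of chromosome 11 (612553 to 615999), and shares none of its 2628 exon bases with another gene in GENCODE release 29. The gene length that the deposited FPKM imply, 2612 bases, is close to this, but does not show whether genes outside that release overlap IRF7. PHRF1, a ubiquitin ligase gene, ends 331 bp away on the other strand and rose by a log2 fold change of 0.20 (limma adjusted p = 0.00046). CDHR5, a cadherin-related gene, lies 566 bp upstream on the same strand and rose by 0.39 (limma adjusted p = 0.025).

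**Figure D3:**
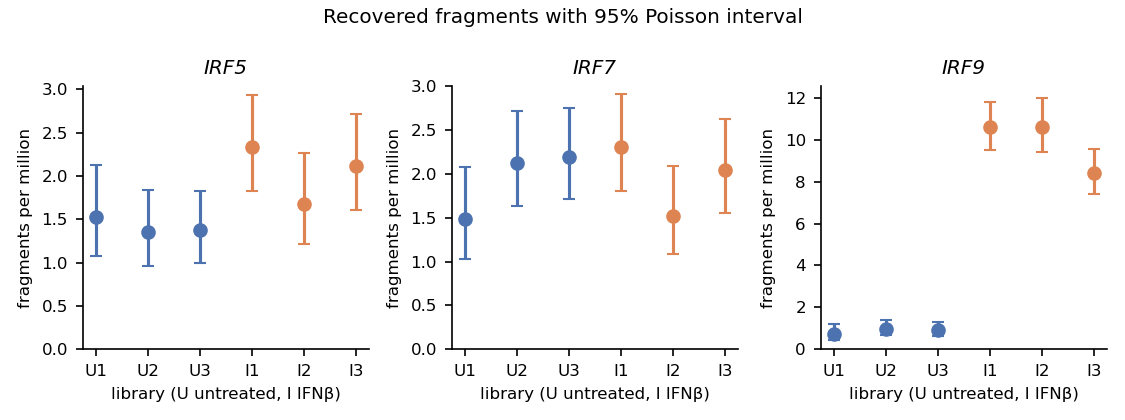
Recovered fragments in each library, scaled to 1e+06, for IRF5, IRF7 and IRF9 (U1 to U3, untreated; I1 to I3, IFNβ), with 95% Poisson intervals for counting error. The IRF7 intervals of all 6 libraries overlap, whereas for IRF9 the highest upper bound without IFNβ is 1.40 and the lowest lower bound with IFNβ is 7.42.

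IRF5, which acts downstream of Toll-like receptors, was low in both groups. It was at 0.216, 0.190 and 0.193 FPKM without and at 0.329, 0.237 and 0.297 FPKM with IFNβ. The groups did not overlap, but the test was not passed. The means were 0.199 ± 0.0142 and 0.288 ± 0.0470 FPKM (S.D., n = 3), with a log2 fold change of 0.37 (SE 0.20, 95% interval -0.11 to 0.84; limma adjusted p = 0.22). In the fit of the recovered fragments the log2 fold change was 0.54 with an adjusted p of 0.053 (limma-voom). IRF5 had between 35 and 45 fragments in the untreated and between 42 and 72 in the treated libraries. It lies on chromosome 7 (128937612 to 128950035, plus strand) and shares none of its 4375 exon bases in GENCODE release 29. The deposited FPKM imply 7100 bases, and sharing in the added bases could not be checked. TNPO3, a nuclear import receptor next to it, fell by 0.23 on the log2 scale (limma adjusted p = 0.0013).

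IRF4 (chromosome 6, 391739 to 411447, plus strand) had 1, 0 and 2 fragments in untreated cells and 1, 0 and 1 in treated cells, at most 0.0102 FPKM, and was below the filter. Fitted without the filter, it did not pass the test (limma adjusted p = 0.86). IRF8 (chromosome 16, 85898803 to 85922609, plus strand) had 0 fragments in all 6 libraries. A count of 0 allows up to 3 fragments. With the 5162 exon bases of IRF8 in GENCODE release 29, this is 0.0177 to 0.0254 FPKM in these libraries. The gene length behind the deposited values cannot be recovered for IRF8. No change of either gene was detectable at this depth, and no fold is given.

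By FPKM, the order in untreated cells was IRF3, IRF2, IRF1, IRF7, IRF5, IRF9, then IRF4 and IRF8. With IFNβ, IRF9 stood between IRF1 and IRF7. Every gene was above the next in every library of its group, except for IRF4 and IRF8. The order of IRF2 and IRF3 depends on the gene length. The deposited values imply lengths of 6723 bases for IRF2 and 3794 for IRF3, whereas GENCODE release 29 has 3116 and 3794 exon bases. With the lengths of that release, IRF2 was at 9.42 ± 0.488 and 15.7 ± 0.448 FPKM (S.D., n = 3) without and with IFNβ, above IRF3 in both groups. The implied lengths also exceed those of the release for IRF9 (6471 against 3794 bases), IRF1 (12265 against 7799) and IRF5 (7100 against 4375), and their order was the same with either. The place of IRF9 also rests on how fragments from the exon bases it shares with the readthrough gene were counted, which is not given. Whether strand was used, which bears on the bases IRF1 and IRF3 share with the other strand, is not given either.

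STAT2, the ISGF3 subunit that IRF9 binds, rose as well. It was at 3.77, 3.94 and 3.92 FPKM without and at 41.2, 39.7 and 40.8 FPKM with IFNβ, with no overlap between groups. Its mean went from 3.88 ± 0.0940 to 40.6 ± 0.781 FPKM (S.D., n = 3), a log2 fold change of 3.35 (limma adjusted p = 8.5e-09). The ratio of its group means was 10.5, and that of IRF9 was 11.3.

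The ratio of IRF9 to STAT2 FPKM within a library was 0.0305, 0.0383 and 0.0359 without and 0.0399, 0.0415 and 0.0320 with IFNβ. The groups overlapped. The mean was 0.0349 ± 0.00400 and 0.0378 ± 0.00509 (S.D., n = 3), a log2 difference of 0.11 (two-sided exact permutation p = 0.50). With a pseudocount of 1, which shrinks the fold of IRF9 more than that of STAT2, the difference was -1.94. The size of the ratio also rests on how fragments from the shared exon bases of IRF9 were counted, which is not given.

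Of 16 genes that sense nucleic acids or activate IRF3, IRF5 and IRF7, 15 were tested, 9 rose and 2 fell, beside 15.2% of all genes that rose and 17.5% that fell, with a median log2 fold change of 0.26. The sensors IFIH1, TLR3 and RIGI rose by log2 fold changes of 5.20, 3.41 and 3.06, and the adaptor STING1 by 1.27. This scale understates the change of low genes, and the ratios of means of the sensors were 39.1, 11.4 and 18.1. RIGI, at 0.0752 and 1.36 FPKM, passed the filter only through its treated libraries, and without it 8 of 14 rose and 2 fell. Of the kinases that phosphorylate IRF3 and IRF7, IKBKE rose by 0.53 (limma adjusted p = 0.00018), and TBK1 had a log2 fold change of 0.05 (limma adjusted p = 0.47). TRAF3, an adaptor of these kinases, fell by 0.23 on the log2 scale, and IRAK1, a kinase of Toll-like receptor signalling, fell by 0.39. MYD88, the adaptor of that route, had between 4 and 12 fragments and was not tested.

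Of 9 cofactors and negative regulators of IRFs, 4 rose and 3 fell, beside the same 15.2% and 17.5% of all genes, with a median log2 fold change of 0.08. TRIM21, a ubiquitin ligase that acts on several IRFs, rose from 14.9 to 76.8 FPKM (log2 fold change 2.36, limma adjusted p = 2.9e-08). RBCK1, which promotes degradation of IRF3, rose by 0.98 (limma adjusted p = 1.4e-05). The IRF2-binding proteins were split, since IRF2BPL rose by 0.58 whereas IRF2BP1 and IRF2BP2 fell by 0.29 and 0.14 on the log2 scale. The coactivators CREBBP and EP300 did not pass the test.

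Of 8 genes known as IRF1 targets, 7 rose, each with a log2 fold change of at least 1, beside 3.49% of all genes, and none fell, beside 17.5% of all genes. Interferons also induce several of these through ISGF3, and the part of IRF1 in them was not tested. TAP1, a peptide transporter of antigen presentation, rose from 6.88 to 108 FPKM, and PSMB9, an immunoproteasome subunit, from 2.33 to 30.1 FPKM. GBP2, CASP1, IL15 and IL7 rose by log2 fold changes of 2.43, 2.54, 1.12 and 1.06. TNFSF10, which encodes the death ligand TRAIL, went from at most 2 fragments in an untreated library to between 1083 and 1317 in a treated one. It passed the filter only through its treated libraries, and without it 6 of 7 rose. CIITA, the coactivator of MHC class II genes, did not pass the test (log2 fold change 0.44, limma adjusted p = 0.18). The median log2 fold change was 2.48 over the 8 and 2.43 over the 7.

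**Figure D4:**
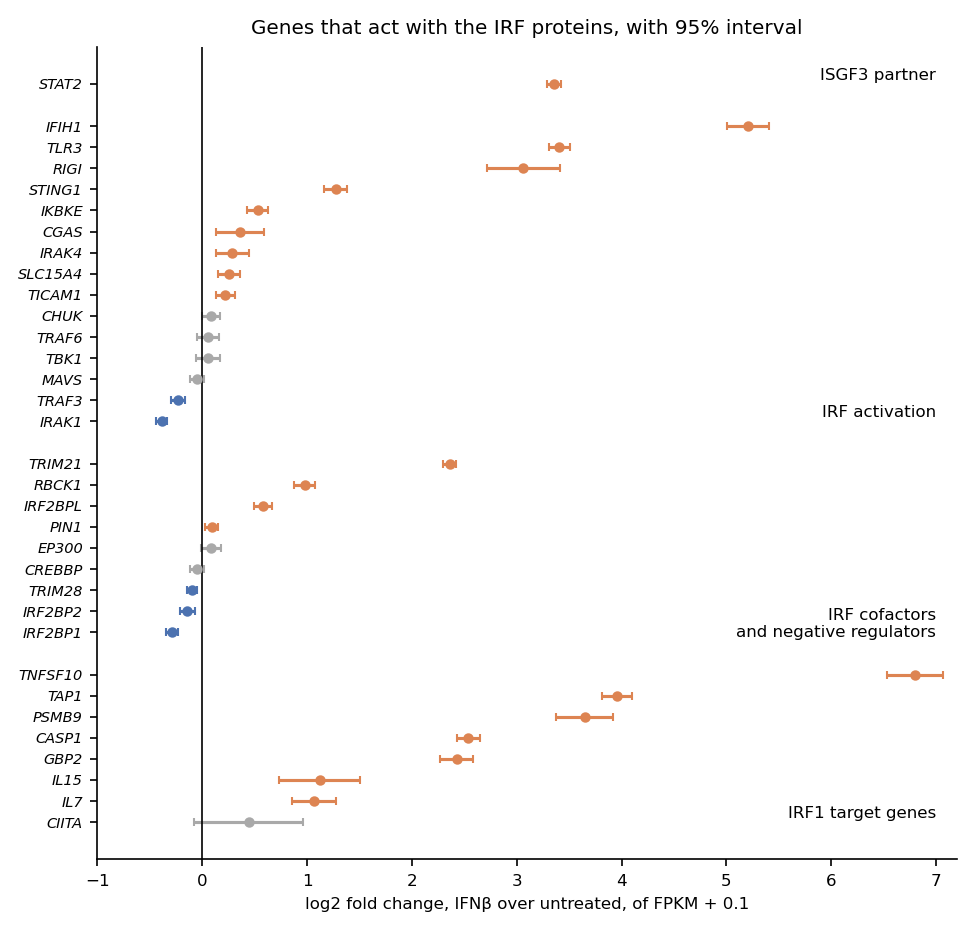
Log2 fold change, IFNβ over untreated, on the scale log2(FPKM + 0.1), of the tested genes that act with, upstream or downstream of the IRF proteins, with 95% intervals of limma (orange, higher and blue, lower with an adjusted p under 0.05; grey, not past the test). STAT2 sits above 3, the activation genes run from -0.39 (IRAK1) to 5.20 (IFIH1), and 7 of the 8 IRF1 targets sit above 1.

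For the members with a mean of at least 1 FPKM, the protein-coding genes nearest in pattern were sought among 10188 genes, by the Euclidean distance over the 6 libraries of log2(FPKM + 0.1) minus its untreated mean. The nearest to IRF1 were MOB3C (distance 0.103), RNF122 (0.112) and RNF19B (0.140). EMC7 (0.0535), CDC42EP3 (0.0695) and AZI2 (0.0841) were nearest to IRF2. UXS1 (0.0351), SMARCA5 (0.0565) and PKD1 (0.0571) were nearest to IRF3. With only 2 groups these distances mostly reflect a like size of the IFNβ difference.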

How the data were processed

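RNA-seq values of 6 HT1080 libraries were used, 3 of untreated cells and 3 of cells exposed to IFNβ (20 ng/mL, 24 h). The deposited values are FPKM per Ensembl gene, computed by the authors from paired reads of 150 bases, with no pooling of replicates. The submitters' processing notes name fastp, HISAT2, StringTie and GRCh38. The counting tool, the annotation, the gene lengths and the strandedness are not given in the sources used here. GENCODE release 29 lacks 4436 of the IDs, so exon overlaps from that release may differ from those the authors used.

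The FPKM of all 35303 genes above 0 were whole multiples of a single fragment's value (tolerance 0.0001), from which fragments and implied gene lengths were recovered. A single fragment in 1 kb is worth 0.0304 to 0.0438 FPKM. Pairs of libraries within a group differed by more than counting error (chi-square per degree of freedom 1.78 to 3.39).

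Groups were compared with limma 3.58.1 (R 4.3.3; lmFit and eBayes with trend) on log2(FPKM + 0.1), using the genes that averaged at least 0.1 FPKM, with no covariate and Benjamini-Hochberg adjustment over all genes tested, and the procedure was tested on simulated data. The deposited unit is FPKM, so a log-scale test was the main one, and the count test that the study's methods name was not run on the recovered fragments. Alternatives were other pseudocounts (1 and 0.01), filters, scalings, eBayes without trend, a replicate block, left-out libraries, a threshold of 0.01 and limma-voom on recovered fragments. The exon lengths of GENCODE release 29, and list counts over genes at 0.1 FPKM or more in each group, were added after the values had been seen. The members and gene lists were chosen with earlier results of these data known. Genes named are the members, genes that overlap them or lie next to them, IRF2-DT, the lists, the markers, and the 3 nearest in pattern, and IRF2-DT was added after its values were seen. Some members of the lists and some neighbouring genes are not reported here. Python 3.11.15 was used for the other steps.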

Additional observations from a re-analysis of the deposited data

How the results depend on the processing

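Under the alternatives run, IRF1, IRF2 and IRF3 stayed higher with an adjusted p under 0.05 (limma), with log2 fold changes of 0.92 to 1.31, 0.62 to 0.75 and 0.54 to 0.60. IRF9 ran from 1.15 to 3.45 and stayed higher wherever it was tested (adjusted p of 0.0015 or less, limma or limma-voom). IRF5 ran from 0.10 to 0.54 (adjusted p 0.053 to 0.44, limma or limma-voom). IRF5, IRF7 and IRF9 were not tested with a filter of 1 FPKM. IRF7 was negative with quantile normalization (-0.11) and ran from -0.14 to 0.16 with 1 library left out. It was negative without untreated replicate 1 (-0.14), IFNβ replicate 1 (-0.099) and IFNβ replicate 3 (-0.021), and never passed the test.

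With a pseudocount of 1, 1 member was higher with a log2 fold change of at least 1, as were 278 genes of all, 26 were lower by as much, and the log2 ratio of IRF9 to STAT2 was -1.94. With the filter of 1 FPKM these counts were 1 member (IRF1), 365 and 60 genes, in place of 2, 722 and 153. At an adjusted p under 0.01, 2011 genes were higher and 2330 lower, 70 of them with a log2 fold change of at most -1, in place of 3153 and 3625. Without the trend, 3 genes of the pathway lists were lower, in place of 5. With the exon lengths of GENCODE release 29, the log2 ratio of IRF2 to IRF3 was 0.21 without and 0.35 with IFNβ, in place of -0.90 and -0.76. Quantile normalization moved the median of all genes by -0.060, the most of any setting, and 39.2% of the genes called were higher, in place of 46.5%.

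The deviations of same-numbered libraries from their group means correlated at 0.053, -0.018 and 0.12, and those of other pairs at -0.151 to 0.0989. Such low values cannot decide whether the numbers pair the samples. With the replicate number as a block, 4 members were higher (IRF9 with a log2 fold change of 2.79 and an adjusted p of 0.0015, limma) and 2759 genes were called higher.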

Other observations

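Genes that work with IRF4 and IRF8 in leukocytes were at or near 0 too. Of 6 such partners, BATF, IKZF1 and IKZF3 had 0 fragments in all 6 libraries, and SPI1 and SPIB had at most 3 in any library. BATF3, a leucine zipper factor that pairs with JUN proteins, was the exception, at 1.97 ± 0.0994 FPKM without and 2.20 FPKM with IFNβ (log2 fold change 0.15, limma adjusted p = 0.21).

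Of 9 interferon genes, among them IFNB1, a target of IRF3 and IRF7, 5 had 0 fragments in all libraries. IFNB1 had 1 fragment in 1 treated library and 0 elsewhere. IFNL1 had 0, 2 and 1 fragments with IFNβ and 0 without it, which is within the limit that a count of 0 allows. IFNE, known for constitutive expression in some epithelia, was at 0.631 ± 0.231 FPKM without and 0.703 FPKM with IFNβ, and did not pass the test (limma adjusted p = 0.69).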
